A study of Mus musculus with 28 samples.

Results

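The cytochrome P450 genes of families 1 to 3 were examined across all groups of a mouse study of steatohepatitis. Members were every gene whose symbol is Cyp1, Cyp2 or Cyp3 followed by a subfamily letter and a number, except Cyp2c70, which makes mouse bile acids. The rule uses names only, and 59 of the 47719 genes in each table matched. They fall into 16 subfamilies led by Cyp2c with 14 members, Cyp3a with 9, and Cyp2d and Cyp2j with 8 each. Liver RNA came from 28 male C57BL/6 mice in 7 groups of 4, all about 6 weeks old when feeding began. Lean controls ate a low-fat diet (10% of calories from fat, with neither fructose nor cholesterol). The other 6 groups ate a NASH diet for 26 weeks, with fat at 40% of calories, fructose at 22% and cholesterol at 2% by weight, and this feeding produces a fatty, inflamed and scarred liver. Oral dosing once a day followed for 4 weeks: obeticholic acid (OCA) at 25 mg/kg, its vehicle, tropifexor at 0.1 (low), 0.3 (mid) or 0.9 mg/kg (high), and the tropifexor vehicle. Both drugs are agonists of FXR, the bile acid receptor. The labels do not tie the doses to the group names, so the doses were placed in rising order, and vehicle groups were taken from the sample titles although another label field names the drug there.

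P450 enzymes are heme proteins of the endoplasmic reticulum that oxidise drugs, pollutants, steroids, fatty acids and bile acids with electrons passed on by P450 reductase. In liver, many are switched on by the receptors CAR, PXR and AhR, several differ between male and female mice under growth hormone, and many sit in a gradient from the portal to the central vein of each lobule. In mice the Cyp2 and Cyp3 subfamilies have grown into clusters of near-copies, so reads can belong to more than 1 gene.

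How far members can be told apart was read from the GENCODE M21 transcripts (GRCm38). Of the 59 members, 26 have a partner of at least 90% protein identity (from translated coding sequences), and 31 share over 10% of their 50-base windows exactly with another gene. Cyp2c40 shares 72.1% of them, Cyp2c67 52.8%, Cyp2a5 40.8% and Cyp2a4 38.0%, whereas Cyp2c29 shares 2.1%, Cyp2e1 4.8% and Cyp2f2 0.0%. The following stretches of coding sequence come from 3 pairs of copies that the results turn on. Each covers the same coding positions in both genes, and capitals mark the bases at which the pair differs. Cyp2a4 and Cyp2a5 (chromosome 7, coding positions 596 to 655) differ at 23 of 1485 coding bases:
Cyp2a4: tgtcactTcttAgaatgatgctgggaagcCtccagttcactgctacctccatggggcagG
Cyp2a5: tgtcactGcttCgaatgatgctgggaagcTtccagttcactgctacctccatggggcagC
Cyp2c38 and Cyp2c39 (chromosome 19, positions 337 to 396) differ at 85 of 1473:
Cyp2c38: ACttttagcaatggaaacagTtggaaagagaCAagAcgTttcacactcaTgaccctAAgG
Cyp2c39: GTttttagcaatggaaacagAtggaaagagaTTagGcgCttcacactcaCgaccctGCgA
Cyp2b9 and Cyp2b13 (chromosome 7, positions 1056 to 1115) differ at 108 of 1476:
Cyp2b9: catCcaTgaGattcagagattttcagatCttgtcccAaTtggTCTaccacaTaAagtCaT
Cyp2b13: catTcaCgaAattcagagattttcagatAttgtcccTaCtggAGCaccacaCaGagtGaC
The Cyp2a pair is the closest of these, so the split of its reads is uncertain, while Cyp2c38 shares 7.4% of its windows and Cyp2b9 11.2%.

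**Figure D1:**
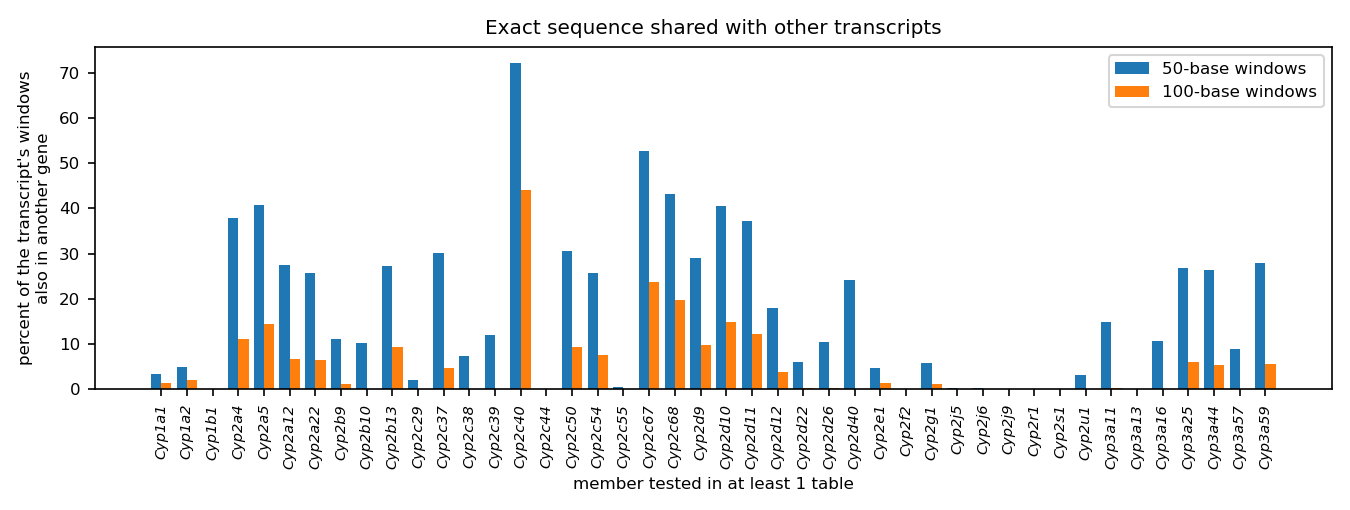
Exact sequence shared with other transcripts, for the 44 members tested in at least 1 table. The y axis gives the percent of a transcript's 50-base (blue) and 100-base (orange) windows also found in another gene; Cyp2c40 stands highest at 72.1% and 44.1%.

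The 10 gene tables hold 1 FPKM (fragments per kilobase of transcript, scaled to library size) per group, so no spread between animals, and no overlap of groups, can be shown; it enters only through the authors' Cuffdiff test. A gene was called, and is said below to have risen or fallen, at a deposited q under 0.05. Log2 fold changes are given with a standard error (SE) rescaled to fit the deposited p-values. Tables were scaled separately, so an FPKM compares only with the other group of its table. Of the 59 members, 44 were tested in at least 1 table, 40 were called in at least 1, and 29 reached an FPKM of 10 in some group. The 15 tested in none stayed at or under 0.216: Cyp2b19, Cyp2b23, Cyp2c65, Cyp2c66, Cyp2c69, Cyp2d34, Cyp2j7, Cyp2j8, Cyp2j11, Cyp2j12, Cyp2j13, Cyp2t4, Cyp2w1, Cyp3a41a and Cyp3a41b. Those tested but never called were Cyp1a1, Cyp2b13, Cyp3a13 and Cyp3a44. The 5 hepatocyte markers tested had a summed FPKM of 39285 to 74949 in every group. In bulk liver, fewer cells of a type and less RNA per cell cannot be told apart.

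**Figure D2:**
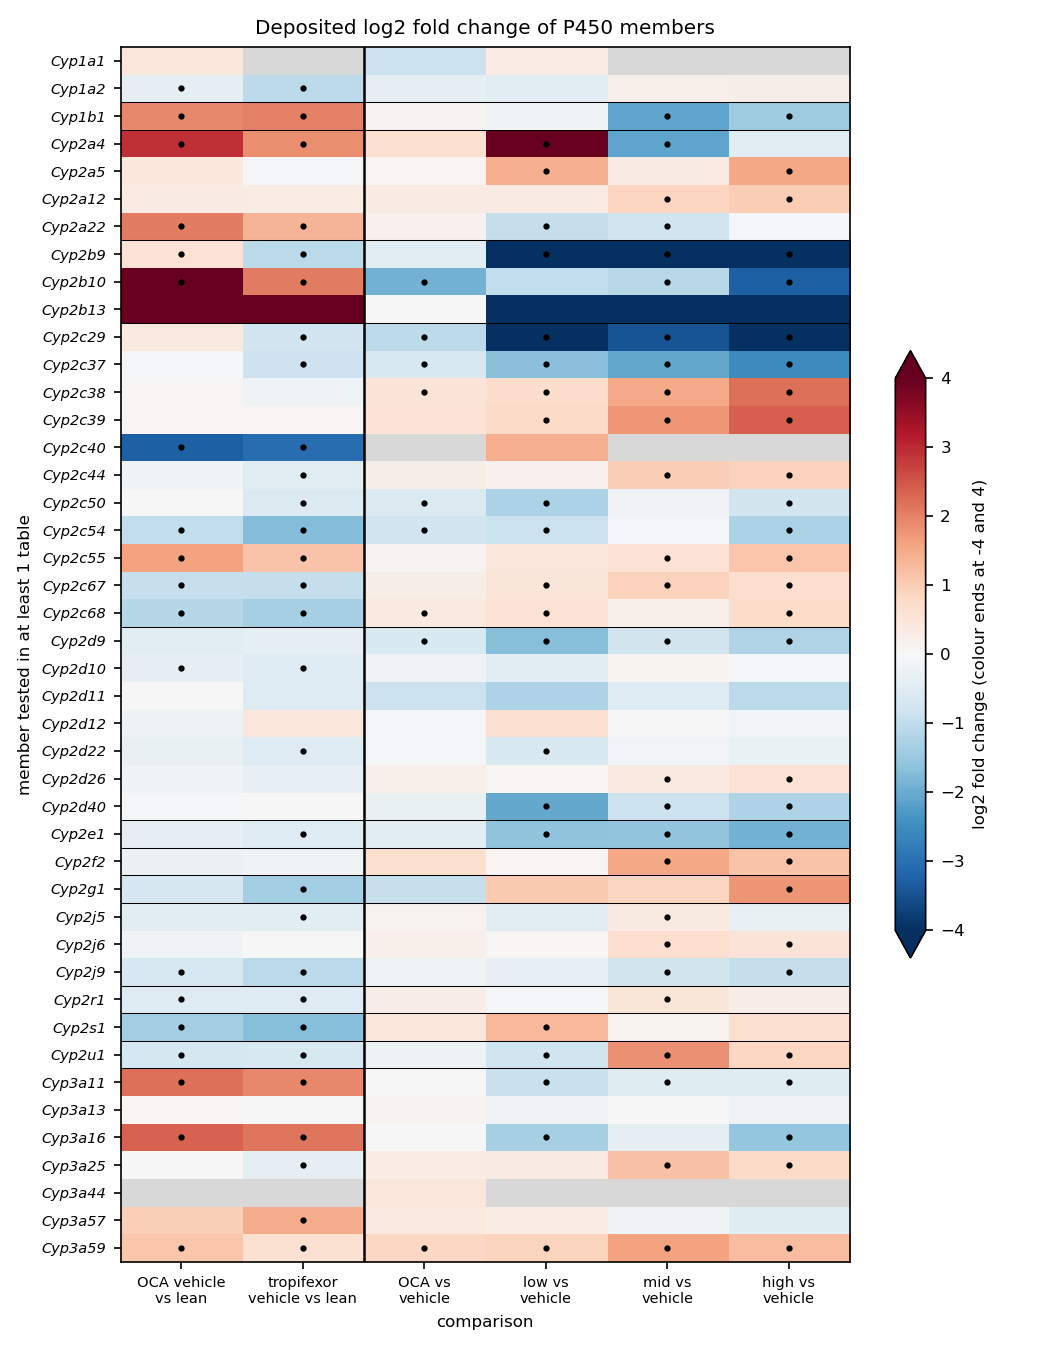
Deposited log2 fold changes of the 44 tested members (rows) in 6 comparisons (columns); red is higher and blue lower in the first-named group, grey marks no test in that table, and a dot marks a call. Colours end at 4 and -4. The tropifexor columns hold the deepest blues, at Cyp2b9 and Cyp2c29 with calls and at Cyp2b13 without one.

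The first comparison set both NASH-diet vehicle groups against lean control. No dosing is listed for the lean controls, so the diet and the vehicle dosing cannot be told apart. Changes described below as with the diet include any effect of the vehicle. Cyp3a11, the main drug- and bile acid-oxidising Cyp3a enzyme of mouse liver and a PXR target, rose in both vehicle groups, and it came to dominate its subfamily. In the authors' deposited table its FPKM went from 298 in lean control to 1361 in the OCA vehicle group, a rise of 2.19 (log2, SE 0.243, q = 0.000588). The deposited table of the tropifexor vehicle group had 300 against 1127, a rise of 1.91 (SE 0.152, q = 0.000507). Against this, Cyp1a2, the AhR-induced oxidase of caffeine and aromatic amines, fell by 0.39 (SE 0.141) in the OCA vehicle table and by 1.04 (SE 0.131) in the tropifexor vehicle table, as deposited. Cyp2e1, the pericentral oxidase of ethanol and acetaminophen and the most abundant member, stood at 4500 in lean and 3502 in OCA vehicle liver in the authors' deposited table (q = 0.706). In the tropifexor vehicle group it fell from 4524 to 3179 (log2 -0.51, SE 0.194, q = 0.0479) in the deposited table.

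Of 43 members tested in OCA vehicle liver, 9 rose, against 11.4% of all genes, and 10 fell, against 6.56%, so that 44.2% were called beside 18.0% of genes. Of 42 tested in tropifexor vehicle liver, 9 rose, against 12.1% of all genes, and 20 fell, against 8.53%, so that 69% were called beside 20.6%. The median member stood at -0.04 and -0.38 (log2) in these groups, and the median gene at 0.02 and 0.01. Both comparisons use the same lean controls. The members that rose in both were Cyp1b1, Cyp2a4, Cyp2a22, Cyp2b10, Cyp2c55, Cyp3a11, Cyp3a16 and Cyp3a59, and those that fell in both were Cyp1a2, Cyp2c40, Cyp2c54, Cyp2c67, Cyp2c68, Cyp2d10, Cyp2j9, Cyp2r1, Cyp2s1 and Cyp2u1. Beside them, 1 and 4 of the 5 hepatocyte markers also fell. Their summed FPKM went from 71254 in lean to 45955 in OCA vehicle liver, and from 71625 to 42061 in tropifexor vehicle liver. The part of these markers in the falls was not tested.

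By subfamily, the summed Cyp3a FPKM went from 643 to 1711 in the OCA vehicle table and from 646 to 1408 in the tropifexor vehicle table, log2 ratios of 1.41 and 1.12. Nearly all of this was Cyp3a11: without it the ratios were 0.02 and -0.30. Cyp3a16, known from fetal and female liver, rose by 2.36 (SE 0.391) and 2.15 (SE 0.426) in the authors' deposited tables, but only to 0.424 and 0.367. Cyp3a59 rose by 1.12 (SE 0.127) and 0.60 (SE 0.14) there. Cyp3a25, the second most abundant Cyp3a member, stood at -0.03 (q = 0.961) in the OCA vehicle table and fell by 0.40 (SE 0.151) in the tropifexor vehicle table. Cyp3a13, also of intestine, was flat at 0.07 (q = 0.853) and -0.02 (q = 0.972) in the deposited tables. Cyp3a57 rose by 1.47 (SE 0.373) in the tropifexor vehicle table, to 0.382, and was at 0.95 (q = 0.0534) in the other.

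Cyp2b10, the classical CAR target, rose by 4.73 (SE 0.58) in the OCA vehicle group, from 0.0891 to 2.36, by the authors' deposited table. The tropifexor vehicle table gave a rise of 2.08 (SE 0.671), to 0.379. Its neighbour Cyp2b9, a female-predominant steroid hydroxylase, rose from 12.4 to 18.5 in the OCA vehicle group (log2 0.57, SE 0.133) and fell from 12.5 to 5.89 in the tropifexor vehicle group (log2 -1.08, SE 0.145), per the deposited tables. These calls go in opposite directions in groups given the same diet. The difference of -1.65 (normal 95% interval -2.44 to -0.87) was itself called, the only call among 42 members (0.0985% of all genes). Cyp2b13 was listed at 0.0127 in lean and 1.07 in OCA vehicle liver, a deposited log2 fold change of 6.40 without a call (q = 0.416).

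Most Cyp2c members are epoxygenases and hydroxylases of arachidonic and linoleic acid, and they parted with the diet. In the authors' deposited tables for OCA vehicle and tropifexor vehicle, in that order, Cyp2c54 fell by 0.99 (SE 0.127) and 1.72 (SE 0.135), and Cyp2c68 by 1.14 (SE 0.122) and 1.34 (SE 0.126). Cyp2c67 fell by 0.91 (SE 0.124) and by 0.96 (SE 0.126) there. Cyp2c40 fell by 3.27 and by 3.06 in the deposited tables, from a level of only 0.674 and 0.678, and 72.1% of its windows belong to copies. Cyp2c55, inducible through CAR and PXR, was the Cyp2c member that rose, by 1.60 (SE 0.169) and 1.14 (SE 0.188) in the deposited tables. Cyp2c29, the most abundant Cyp2c member, stood at 0.40 (q = 0.195) in the OCA vehicle table and fell from 559 to 330 in the tropifexor vehicle table (log2 -0.76, SE 0.144). Cyp2c37, Cyp2c44 and Cyp2c50 likewise fell in the tropifexor vehicle table, by 0.84, 0.43 and 0.57, and were at -0.09, -0.17 and 0.02 without a call in the other deposited table. Cyp2c38 and Cyp2c39 stayed between -0.17 and 0.05 in both, without a call.

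Among the rest, Cyp2a4, a female-predominant steroid hydroxylase, rose by 2.92 (SE 0.292) and 1.87 (SE 0.311) in the authors' deposited tables, to 2.03 and 0.983, while its copy Cyp2a5, the coumarin hydroxylase, was at 0.42 (q = 0.162) and -0.07 (q = 0.901). Cyp2a22 rose by 2.05 and 1.36 there. Cyp1b1, better known from cells other than hepatocytes, rose by 1.91 (SE 0.212) and 2.02 (SE 0.226), to 0.534 and 0.577, by the deposited tables. Beside it 5 and 4 of 7 macrophage markers rose and 1 fell in each table, and 2 of 6 stellate cell markers rose in each. Of all genes 11.4% and 12.1% rose and 6.56% and 8.53% fell. The part of these markers was not tested. Cyp2r1, a vitamin D hydroxylase, fell by 0.51 (SE 0.144) and by 0.53 (SE 0.156), and Cyp2u1, a fatty acid hydroxylase, by 0.69 and 0.63 in the authors' deposited tables. Cyp2j9 fell by 0.63 and by 1.07, Cyp2s1 by 1.38 and by 1.69, and Cyp2d10 by 0.40 and by 0.52 in these tables. Cyp2d22, Cyp2g1 and Cyp2j5 fell in the tropifexor vehicle table, by 0.51, by 1.39 and by 0.43. Cyp2a12, Cyp2d9, Cyp2d26, Cyp2d40 and Cyp2f2 were called in neither; Cyp2d9 was at -0.42 (q = 0.0672) and -0.35 (q = 0.0543) in the deposited tables.

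The second comparison asked what OCA did on the NASH diet. With OCA, 4 Cyp2c epoxygenases, Cyp2b10 and Cyp2d9 fell and 3 members rose, while Cyp3a11 and Cyp2e1 gave no call. Cyp2c29 fell from 780 to 378 (log2 -1.05, SE 0.205, q = 0.00268) by the authors' deposited table. Cyp2c54 fell from 59 to 34.4, Cyp2c37 from 107 to 69.6 and Cyp2c50 from 265 to 178, with log2 fold changes of -0.78, -0.62 and -0.58 in that deposited table. Cyp2b10 fell from 2.51 to 0.682 (log2 -1.88, SE 0.234), and Cyp2d9, a male-predominant testosterone hydroxylase, from 357 to 235 (log2 -0.60, SE 0.168). Cyp3a59 rose from 16 to 28.5 (log2 0.84, SE 0.125), Cyp2c38 by 0.53 (SE 0.128) and Cyp2c68 by 0.39 (SE 0.125), per the authors' deposited table.

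These were all the calls under OCA: of 43 members tested 3 rose, against 1.81% of all genes, and 6 fell, against 2.23%, so that 20.9% were called beside 4.04% of genes. Cyp3a11 was listed at 1450 and 1449 (log2 -0.00, q = 0.999) and Cyp2e1 at 3734 and 2715 (log2 -0.46, SE 0.368, q = 0.885) in the authors' deposited table. Cyp2f2, the periportal naphthalene oxidase, was at 546 and 855 (log2 0.65, q = 0.0994). Cyp2b9 stood at 19.6 and 14.5 (log2 -0.43, q = 0.0605) and Cyp2c39, a retinoic acid hydroxylase, at 0.57 (q = 0.059) in the deposited table, neither called. Hepatocyte markers summed to 48982 in vehicle and 58205 in OCA liver.

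The third comparison asked the same of tropifexor, whose 3 dose groups share 1 vehicle group. Cyp2e1 and Cyp2c29, the most abundant member and the most abundant Cyp2c member of vehicle liver, fell at every dose. Cyp2b9 dropped to a trace. Cyp2c38, Cyp2c39, Cyp2c67 and Cyp3a59 rose at every dose. At the low dose, of 43 members tested, 8 rose, against 6.03% of all genes, and 13 fell, against 5.20%, so that 48.8% were called beside 11.2% of genes. At the mid dose, of 41 tested, 14 rose, against 11.8%, and 12 fell, against 15.7%, so that 63.4% were called beside 27.5%. At the high dose, of 41 tested, 15 rose, against 9.93%, and 13 fell, against 15.5%, so that 68.3% were called beside 25.4%. The median member stood at -0.15, 0.02 and -0.11 (log2) in rising order of dose, beside -0.00, -0.01 and -0.05 for the median gene. Of the hepatocyte markers 1 of 5 fell at each dose. Their summed FPKM went from 47928 in vehicle to 49801 at the low dose and from 41885 to 49164 at the mid dose. At the high dose it went from 43587 to 42720.

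Cyp2e1 went from 3625 in vehicle to 1190 at the low dose (log2 -1.61, SE 0.359), from 3165 to 1054 at the mid dose (log2 -1.59, SE 0.181) and from 3294 to 883 at the high dose (log2 -1.90, SE 0.178), by the authors' deposited tables. The widest gap between doses, high minus mid, was -0.31 (95% interval -1.33 to 0.70), and no difference between doses was called. Cyp2c29 went from 376 to 20.5 (log2 -4.20, SE 0.2), from 328 to 30.2 (log2 -3.44, SE 0.147) and from 342 to 7.32 (log2 -5.55, SE 0.167) in the same deposited tables. High dose lay below mid dose by 2.10 (95% interval -2.99 to -1.21), a called difference and the only one among 41 members between these doses (0.319% of all genes). Cyp2c37 fell too, with log2 fold changes of -1.67 (SE 0.184), -2.04 (SE 0.141) and -2.54 (SE 0.142) and 10.7 at the high dose, by the deposited tables.

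Cyp2b9 showed the deepest fall of any called member. Vehicle liver was listed at 6.71, 5.87 and 6.11 in the authors' deposited tables, and dosed liver at 0.128, 0.0388 and 0.0156. The deposited log2 fold changes were -5.71 (SE 0.394), -7.24 (SE 0.496) and -8.61 (SE 0.984), with q of 0.000968, 0.000361 and 0.00107. Such low dosed values rest on few fragments, the depth is unknown, and the size of the fold is less sure than its direction. Cyp2b13 was listed at 0.391, 0.342 and 0.356 in vehicle and at 0.0136, 0.0149 and 0.0168 in dosed liver, with no call (q = 0.263, 0.382 and 0.336) in the deposited tables. Cyp2b10 was at -0.99 (q = 0.222) at the low dose and fell by 1.12 (SE 0.448) and by 3.28 (SE 1.12) at the mid and high doses, all at an FPKM under 0.5.

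Since Cyp2b9 and Cyp2b13 lie close together on chromosome 7 and both were listed far lower in dosed than in vehicle liver, only Cyp2b9 with a call, their promoters are shown. The 160 bases before each start (RefSeq, GRCm38.p6) are chr7:26173249-26173408 and chr7:26061335-26061494, both on the plus strand, with the nuclear receptor half-site AGGTCA in capitals at 138 to 133 bases before the start:
Cyp2b9: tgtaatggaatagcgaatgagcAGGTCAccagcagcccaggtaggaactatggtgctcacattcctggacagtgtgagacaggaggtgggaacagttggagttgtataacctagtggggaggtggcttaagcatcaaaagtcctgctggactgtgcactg
Cyp2b13: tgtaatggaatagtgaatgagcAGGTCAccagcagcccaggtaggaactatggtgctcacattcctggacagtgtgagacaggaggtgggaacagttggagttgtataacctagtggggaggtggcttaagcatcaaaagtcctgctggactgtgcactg
Compared position by position over 250 bases, the pair is identical at 248. Cyp2b9 and Cyp2b10 match at 66 in this way. No shift or gap was allowed, so that count cannot show how alike these promoters are. Motifs were searched on both strands in the 250 bases before the start of the 51 members that RefSeq lists and of all 32851 promoters. A member counts if any of its listed promoters holds the motif, whereas the share of all promoters counts each promoter singly. The paired percentages are therefore not on the same footing. AGGTCA was found in 14 members (27.5%) and in 14% of all promoters. The HNF4 motif CAAAGTCCA was found in 0.384% of all promoters and in 9 members (17.6%): Cyp2c40, Cyp2c65, Cyp2c67, Cyp2c68, Cyp2c69, Cyp3a11, Cyp3a16, Cyp3a41a and Cyp3a41b. All lie in the Cyp2c and Cyp3a clusters of near-copies, and Cyp3a41a and Cyp3a41b have 100% protein identity. They are therefore not separate cases, and Cyp2c65, Cyp2c69, Cyp3a41a and Cyp3a41b had no expression test. AGTTCA, a second half-site, was in 8 members (15.7%) and in 11.8% of all promoters, the AhR core GCGTG in 8 (15.7%) and 28.2%, TTCNNNGAA, the STAT motif, in 2 (3.92%) and 7.02%, and TATAAA in 24 (47.1%) and 12.4%. The FXR inverted repeat of this half-site and the HNF1 palindrome, searched as exact letters, were in 0 of 51 members, and in 0.00609% and 0.00913% of all promoters. Such matches describe letters in this window only.

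Cyp2c members split under tropifexor. Besides Cyp2c29 and Cyp2c37, Cyp2c50 fell by 1.26 (SE 0.199) at the low and by 0.74 (SE 0.133) at the high dose, and Cyp2c54 by 0.86 (SE 0.196) at the low and 1.26 (SE 0.137) at the high dose, in the authors' deposited tables. At the mid dose both stayed uncalled, at -0.14 (q = 0.559) and -0.09 (q = 0.738). In the other direction Cyp2c38 went from 22.8 to 36.6 at the low dose, from 19.9 to 57.4 at the mid dose and from 20.7 to 94.9 at the high dose, or 1.61-, 2.89- and 4.58-fold higher (SE 0.169, 0.129 and 0.126 on the log2 scale) by the deposited tables. Its copy Cyp2c39 rose by 0.75 (SE 0.252), 1.74 (SE 0.176) and 2.38 (SE 0.173) to 3.25, 5.64 and 9.14. The step from low to high dose was 1.51 (95% interval 0.66 to 2.36) for Cyp2c38 and 1.63 (0.40 to 2.85) for Cyp2c39, and neither was called. With the rescaled errors both steps were called (1.09 to 1.92 and 1.03 to 2.23).

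Cyp2c67 rose by 0.49, 0.91 and 0.68 in rising order of dose, and Cyp2c68 by 0.59 at the low and 0.74 at the high dose (mid 0.19, q = 0.334), per the authors' deposited tables. Cyp2c44, an epoxygenase with no shared window, was at 0.16 (q = 0.777) at the low dose and rose by 0.98 (SE 0.134) and 0.92 (SE 0.131) at the mid and high doses. Cyp2c55 rose by 0.58 (SE 0.167) and 1.10 (SE 0.167) at those doses. In sum the Cyp2c FPKM went from 937 to 479, from 818 to 673 and from 851 to 632 from low to high dose. Their log2 ratios of -0.97, -0.28 and -0.43 became -0.29, 0.39 and 0.30 without Cyp2c29, so at the mid and high doses the lower sum was that 1 gene.

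Cyp3a11 fell at every dose, from 1282 to 696 (log2 -0.88, SE 0.274), from 1121 to 795 (log2 -0.50, SE 0.169) and from 1166 to 824 (log2 -0.50, SE 0.166) by the authors' deposited tables. It stayed above lean liver at each dose, by 1.03 (SE 0.214), 1.41 (SE 0.129) and 1.39 (SE 0.124) in the deposited tables against lean control. Cyp3a25 went the other way, from 213 to 479 at the mid dose (log2 1.17, SE 0.171) and from 221 to 380 at the high dose (log2 0.78, SE 0.149), and was at 0.33 (q = 0.382) at the low dose. Cyp3a59, its copy of 95% protein identity, rose by 0.88 (SE 0.178), 1.62 (SE 0.136) and 1.23 (SE 0.133) in the deposited tables. They share 26.8% and 28.0% of their windows with other genes, so the split between them is uncertain. Cyp3a16 fell by 1.32 (SE 0.428) and by 1.55 (SE 0.395) at the low and high doses, from 0.417 and 0.38, in the deposited tables. Cyp3a13 again stood between -0.15 and 0.02 without a call.

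In the Cyp2a subfamily, Cyp2a5 went from 313 to 854 at the low dose (log2 1.45, SE 0.414, q = 0.0252) and from 284 to 833 at the high dose (log2 1.55, SE 0.198), but from 273 to 346 at the mid dose (log2 0.34, q = 0.233), by the authors' deposited tables. No dose difference was called for Cyp2a5: mid minus low was -1.11 (95% interval -2.96 to 0.74) and high minus mid 1.21 (0.08 to 2.34). With the rescaled errors high minus mid was called (0.65 to 1.77) and mid minus low was not. Cyp2a4 rose from 1.11 to 18.1 at the low dose (log2 4.02, SE 0.32), fell from 0.978 to 0.228 at the mid dose (log2 -2.10, SE 0.313) and was listed at 1.02 and 0.745 at the high dose (log2 -0.45, q = 0.243). The low dose thus stood apart for Cyp2a4: mid minus low was -6.12 (95% interval -7.91 to -4.33) and high minus low -4.47 (-6.13 to -2.81), both called. Reads that these copies share could be credited to either, and their part in these values was not tested. Cyp2a5 and Cyp2a4 stood at 854 and 18.1 at the low dose, at 346 and 0.228 at the mid dose, and at 833 and 0.745 at the high dose. Cyp2a12, which rehydroxylates secondary bile acids, was at 0.32 (q = 0.425) at the low dose and rose by 0.87 (SE 0.14) and 0.97 (SE 0.138) at the mid and high doses in the deposited tables. Cyp2a22 fell by 0.94 (SE 0.226) and by 0.79 (SE 0.165) at the low and mid doses.

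Male-predominant Cyp2d9 fell at every dose, from 402 to 123 (log2 -1.70, SE 0.208), from 350 to 210 (log2 -0.74, SE 0.139) and from 365 to 158 (log2 -1.21, SE 0.135), in the authors' deposited tables. Cyp2d40 fell by 2.04 (SE 0.201), by 0.87 (SE 0.134) and by 1.24 (SE 0.135). For both the low dose gave the deepest value. No difference between doses was called with the wider errors implied by the authors' statistic. With the rescaled errors mid minus low was called for Cyp2d9 (0.96, 95% interval 0.47 to 1.45) and Cyp2d40 (1.17, 0.70 to 1.64). High minus low was then also called for Cyp2d40 (0.80, 0.33 to 1.27). Cyp2d26, the most abundant Cyp2d member, rose by 0.38 (SE 0.144) and 0.59 (SE 0.143) at the mid and high doses, and Cyp2d22 fell by 0.60 (SE 0.176) at the low dose only, by the deposited tables. Cyp2d10, Cyp2d11 and Cyp2d12 were not called at any dose.

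Cyp2f2 rose from 542 to 1582 at the mid dose (log2 1.55, SE 0.176) and from 564 to 1253 at the high dose (log2 1.15, SE 0.17), and was listed at 621 and 651 at the low dose (log2 0.07, q = 0.962), by the authors' deposited tables. Cyp2u1 was called in opposite directions: it fell from 8.55 to 4.96 at the low dose (log2 -0.79, SE 0.258), rose from 7.46 to 26.6 at the mid dose (log2 1.84, SE 0.168) and from 7.77 to 13.7 at the high dose (log2 0.82, SE 0.168). Mid minus low was 2.62 (95% interval 1.39 to 3.86), a called difference, 1 of 2 among 41 members (0.423% of all genes); high minus low was 1.61 (0.37 to 2.84), not called, where Cyp2a4 was the only member called (0.278%). Cyp2j6 rose by 0.68 and 0.52 and Cyp2j9 fell by 0.72 and by 0.94 at the mid and high doses, while Cyp2j5, an epoxygenase, rose by 0.36 at the mid dose, in the deposited tables. Cyp2r1 rose by 0.47 at the mid, Cyp2s1 by 1.32 (SE 0.388) at the low and Cyp2g1, of olfactory mucosa, by 1.76 (SE 0.468) at the high dose. Cyp1a2 was not called at any dose, at -0.42 (q = 0.166), 0.20 (q = 0.299) and 0.22 (q = 0.241).

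Cyp1b1 fell by 2.12 (SE 0.232) at the mid and by 1.42 (SE 0.222) at the high dose, to 0.132 and 0.223, and stood at -0.16 (q = 0.87) at the low dose, by the authors' deposited tables. Beside it 5 of 6 stellate cell markers fell at the mid and high doses. Their summed FPKM went from 61.6 in vehicle to 23.4 and from 64.1 to 26. At the low dose 3 of 6 fell, from 70.5 to 32.9 in sum. Of 7 macrophage markers 5 and 4 fell at the mid and high doses, from 160 to 93.3 and from 167 to 122 in sum. At the low dose the sum went from 183 to 150. Of all genes 5.20%, 15.7% and 15.5% fell from low to high dose. The part of these markers in the change of Cyp1b1 was not tested.

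**Figure D3:**
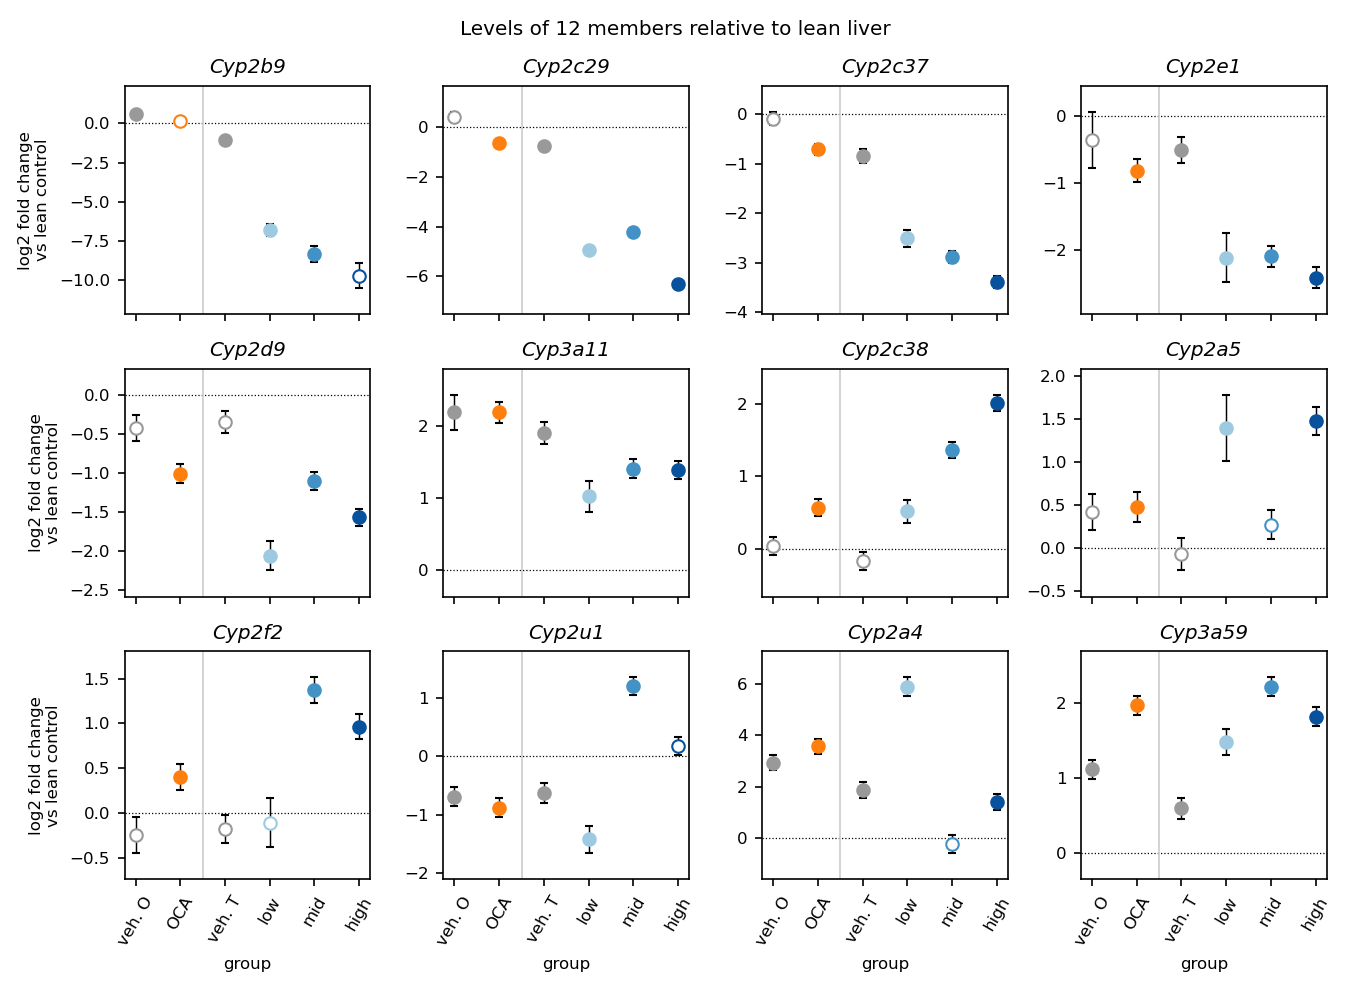
Deposited log2 fold changes against lean control (y axis, 1 panel per member) for 12 members in the 6 NASH-diet groups (x axis; veh. O and veh. T are the OCA and tropifexor vehicles). Bars are rescaled standard errors, filled points are calls, and the dotted line is lean liver; Cyp2e1 and Cyp2c37 step down from vehicle to all tropifexor doses, and Cyp2c38 steps up. The open Cyp2b9 point at high dose carries a deposited q of 0.353.

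OCA and tropifexor were set beside each other by subtracting their effects, each against its own vehicle, at doses that differ. All 9 members called under OCA were called in the same direction at high-dose tropifexor, which is 32.1% of the 28 called there. Over all genes the same held for 441 of the 634 called under OCA (69.6%), or 11.0% of the 4015 called at the high dose; whether the members differ from other genes in this was not tested. Cyp2c29 fell further under tropifexor than under OCA at each dose, with differences of -3.15 (95% interval -4.30 to -2.01) at low, -2.40 (-3.40 to -1.39) at mid and -4.50 (-5.55 to -3.45) at high dose. Cyp2b9 gave -5.27 (-6.95 to -3.59), -6.81 (-8.86 to -4.75) and -8.18 (-12.14 to -4.22). All 6 differences were called. Cyp2c37 fell further at mid (-1.42, interval -2.20 to -0.65) and high dose (-1.92, interval -2.69 to -1.14). At the high dose Cyp2c38 and Cyp2c39 rose further than under OCA, by 1.67 (0.95 to 2.39) and 1.82 (0.82 to 2.81).

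At the mid dose Cyp2u1 lay above OCA by 2.04 (95% interval 1.10 to 2.98), while Cyp1b1 lay below by -2.24 (-3.41 to -1.07) and Cyp2a4 by -2.74 (-4.25 to -1.23). At the low dose Cyp2a4 lay above by 3.38 (1.84 to 4.92). In all, 5 of 41 members were called for high dose against OCA (1.69% of all genes), 6 of 41 for mid dose (1.48%) and 3 of 42 for low dose (0.418%). Cyp2e1 had a wide interval, with high minus OCA at -1.44 (-3.07 to 0.19), and was not called. With the rescaled errors this difference was called (-2.24 to -0.64). For Cyp3a59 the high dose differed from OCA by 0.39, without a call. The main test uses the wider errors implied by the authors' statistic. Where effects share a reference group, as the doses do, adding both errors makes it conservative. A missing call between doses therefore does not show equal effects. With the rescaled errors the counts were 20 (11.4% of all genes), 19 (12%) and 8 (5.24%), and between doses 16 for mid against low (10.3%), 11 for high against low (5.63%) and 7 for high against mid (2.32%), so the number of called differences depends on the error used; the vehicle groups then gave 4 (0.381%).

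**Figure D4:**
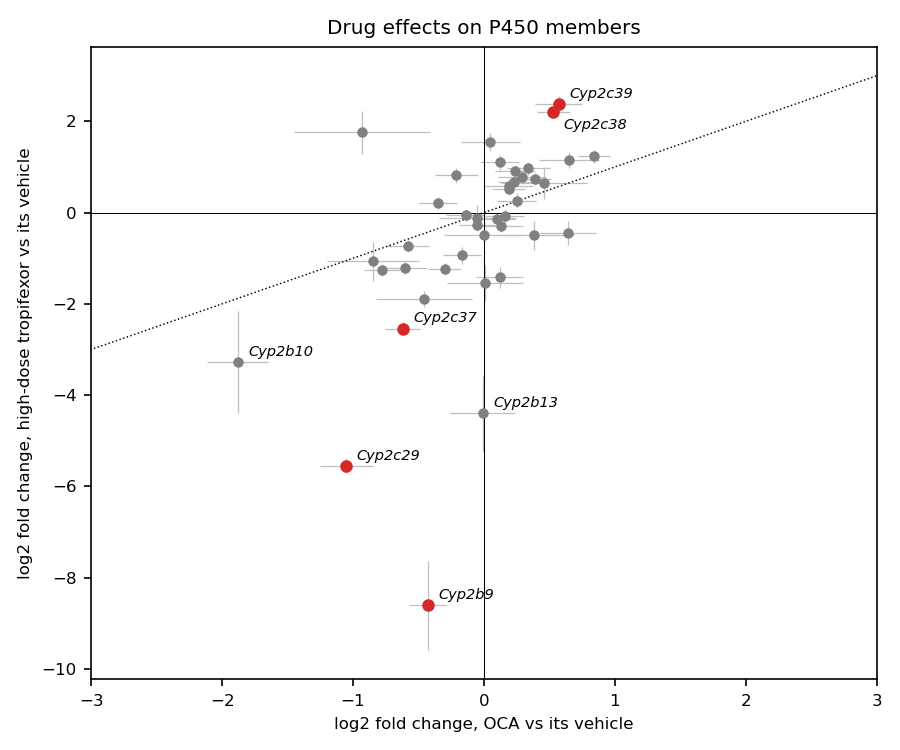
Log2 fold change of each member under OCA (x axis) and high-dose tropifexor (y axis), each against its own vehicle, with rescaled standard errors as bars. Red points are the 5 called differences, the dotted line marks equal change, and the axes differ in scale; Cyp2c29 and Cyp2b9 lie far below the line.

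Set against lean control, most members tested were called in the drug-treated livers. Under OCA 14 of 42 were higher, against 10.3% of all genes, and 17 lower, against 6.50%, or 73.8% called beside 16.8%. At the low dose 11 of 40 were higher, against 13.8%, and 19 lower, against 10.1%, or 75% beside 23.8%. At the mid dose 14 of 39 were higher, against 11.7%, and 16 lower, against 11.5%, or 76.9% beside 23.1%. At the high dose 13 of 38 were higher, against 12.2%, and 17 lower, against 15.2%, or 78.9% beside 27.3%. These comparisons share the lean controls. In all 4 drug groups 6 members were called above lean. Cyp2c55, Cyp3a11 and Cyp3a59 had already risen in both vehicle groups, and Cyp2a12, Cyp2c38 and Cyp2c39 had been called in neither. Another 13 were called below lean in all 4. Of these, Cyp1a2, Cyp2c40, Cyp2c54, Cyp2c68, Cyp2d10 and Cyp2j9 had fallen in both vehicle groups, Cyp2c29, Cyp2c37, Cyp2c50, Cyp2d22 and Cyp2e1 in the tropifexor vehicle group alone, and Cyp2d9 and Cyp2d40 in neither. Cyp2e1 went from 4444 to 2525 under OCA and from 4358 to 812 at the high dose, by the authors' deposited tables. Cyp2b9 at the high dose was listed at 0.0143 against 12, a deposited log2 fold change of -9.71 that carried no call (q = 0.353), although -6.79 and -8.34 at the low and mid doses did. Cyp1b1 at the mid and high doses had FPKM of 0.122 and 0.205 against 0.132 and 0.137 in lean liver and was not tested there.

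As a share of all FPKM in a group, members together held 1.13% in lean, 1.28% in OCA vehicle and 1.09% in tropifexor vehicle liver. OCA liver held 1.11%, and low-, mid- and high-dose liver 0.771%, 0.827% and 0.766%. Cyp2e1 alone went from 0.43% in tropifexor vehicle to 0.155%, 0.122% and 0.0964%, so most of the lower total lay in this gene. Without it the members held 0.656% in that vehicle group and 0.616%, 0.705% and 0.67% in the dosed groups. Cyp2f2 held 0.183% at the mid dose against 0.0736% in vehicle, and the Cyp2a members 0.162% and 0.149% at the low and high doses against 0.073%. Cyp3a members held 0.0749% in lean, 0.231% and 0.19% in the vehicle groups and 0.235% under OCA. These shares come from 1 value per group and have no error.

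**Figure D5:**
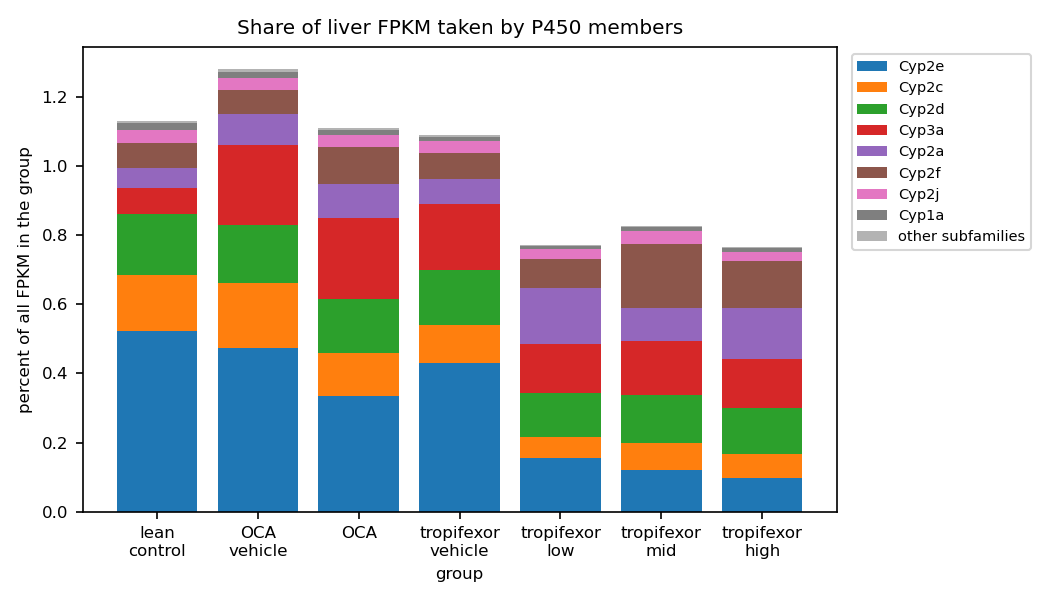
Percent of all FPKM in each of the 7 groups (x axis) held by members, stacked by subfamily from Cyp2e at the base. The Cyp2e1 block shrinks from 0.524% in lean liver to 0.0964% at high-dose tropifexor, and the Cyp3a block widens from 0.0749% in lean to 0.231% in OCA vehicle liver.

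Partners and regulators of these enzymes were taken from lists made for this gene family. Por, the reductase that supplies electrons, was at 0.10 (q = 0.999) under OCA and rose by 0.77 (SE 0.277), 0.81 (SE 0.199) and 0.67 (SE 0.206) with tropifexor from low to high dose, by the authors' deposited tables. Of the 15 genes for P450 partners and heme turnover, 1 rose at each tropifexor dose and 2, 4 and 4 fell. Of all genes, 6.03%, 11.8% and 9.93% rose and 5.20%, 15.7% and 15.5% fell at these doses. Cyb5a, the cytochrome b5 partner, fell by 0.45 (SE 0.149) and by 0.49 (SE 0.148) at the mid and high doses. With the diet 4 and 3 of the 15 rose and 1 fell, among them Alas1, the rate-limiting enzyme of heme synthesis, by 2.29 (SE 0.167) and 2.68 (SE 0.17) in the deposited tables. Of 21 receptors and factors 20 were tested with the diet: 1 rose in each vehicle table, 5 fell in that of OCA vehicle and 7 in that of tropifexor vehicle. With tropifexor 3 of 20, 6 of 19 and 4 of 19 rose from low to high dose, and 7, 6 and 7 fell. Under OCA 3 of 19 rose and 1 fell. With the diet 11.4% and 12.1% of all genes rose and 6.56% and 8.53% fell. Under OCA 1.81% rose and 2.23% fell. The list counts that follow are to be read beside these same shares.

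Nr1i2, which encodes PXR, rose under OCA by 0.40 (SE 0.125) and under tropifexor from 24.7 to 71.3, from 21.5 to 101 and from 22.4 to 80.8, or 1.53 (SE 0.173), 2.23 (SE 0.129) and 1.85 (SE 0.126), by the authors' deposited tables. Its target gene Cyp3a11 fell at these doses, as given above. Of 13 other PXR, CAR and AhR targets tested, 4, 8 and 6 rose and 1, 2 and 1 fell from low to high dose, led by Akr1b7, an aldo-keto reductase, with rises of 5.55, 5.80 and 7.54 in the deposited tables. Under OCA 1 of 13 rose, and with the diet 6 and 6 rose and 1 and 2 fell. Nr1i3, which encodes CAR, fell by 0.79 (SE 0.237) at the low dose and was uncalled at -0.28 and -0.26 at the others. Ahr fell by 0.65 (SE 0.177), by 0.58 (SE 0.138) and by 0.78 (SE 0.131) at the low, mid and high doses.

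Lobule position was described with genes outside the family. The 9 pericentral hepatocyte genes had a median log2 fold change of -0.09 and -0.00 with the diet and -0.11 under OCA, against -1.73, -0.96 and -1.53 from low to high dose of tropifexor, where 7, 6 and 7 fell. Slc1a2, a glutamate transporter, had log2 fold changes of -2.51 (SE 0.409), -1.83 (SE 0.309) and -5.37 (SE 0.842) in the authors' deposited tables. Of 9 periportal genes 4 and 6 fell with the diet, 6 rose under OCA, and 3, 8 and 5 rose with tropifexor. Hal, histidine ammonia-lyase, rose by 0.95 (SE 0.316), 2.13 (SE 0.215) and 1.64 (SE 0.212). Pericentral Cyp2e1 and periportal Cyp2f2 thus moved in the directions of most genes of their zone at the mid and high doses. Cyp1a2, also pericentral, did not, with no call at any dose.

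Sex-predominant genes were counted beside Cyp2d9 and the female-predominant members. Of 12 male-predominant liver genes, which include Cyp2d9 itself, 7 fell and 1 rose under OCA, and 8, 4 and 6 fell and 1, 4 and 2 rose from low to high dose; Serpina1e, a protease inhibitor, fell by 4.80 under OCA, and had log2 fold changes of -5.57, -4.87 and -5.61 with tropifexor, in the authors' deposited tables. Of 8 female-predominant members 5, 4 and 4 were tested from low to high dose; 2 fell at each dose, beside 5.20%, 15.7% and 15.5% of all genes, and 1, Cyp2a4, rose at the low dose. Of 8 female-predominant genes outside the family 5, 4 and 4 were tested; 3, 2 and 3 of them rose, and 1 fell at each of the mid and high doses, with medians of 1.83, 0.73 and 1.76. Their summed FPKM went from 11.2 to 54.2, from 9.78 to 41.1 and from 10.2 to 43.7. Under OCA 4 were tested and 1 rose. With tropifexor the members' summed FPKM went from 8.87 to 18.7, from 7.76 to 0.752 and from 8.08 to 1.12. At the low dose both lists thus summed higher. For the members this rested on Cyp2a4, at 18.1 of the 18.7, a gene that shares 38.0% of its windows with other genes. Members that fell were Cyp2b9 at every dose, Cyp3a16 at the low and high doses and Cyp2a4 at the mid dose. By calls alone, the members and these genes had more in opposite directions, and the difference between the lists was not tested.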

How the data were processed

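Liver RNA of 28 mice (7 groups of 4) was sequenced from stranded mRNA libraries. The submitters' processing notes name bcl2fastq, STAR 2.5.1b, Cufflinks 2.2.1, Cuffnorm, Cuffdiff and GRCm38, without their order; use of the strand in counting was not given in the sources used here. The authors deposited 10 Cuffdiff gene tables with 1 FPKM per group, from 4 animals, and per the file headers a log2 fold change, a test statistic (a score), a p-value and a q-value adjusted over all genes tested. FPKM totals were 706031 to 915996 per group and table, fragment depth is unknown, and the smallest p-value the tables hold is 5e-05. Table headings were read as OCA or tropifexor from their abbreviations, and each vehicle was matched through its FPKM.

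Members were every gene of the name rule, and partner, receptor, zonation, sex and cell marker lists were used beside them; members and lists were chosen with earlier results of these data known. 1 gene of the list of female-predominant genes outside the family is not reported here, and that list was counted without it. A call needs a completed test and a deposited q under 0.05. Members tested anywhere could be named, those called or at an FPKM of 10 singly; of other genes, Por, Cyb5a, Nr1i2, Nr1i3, Ahr and per list and comparison at most the 2 largest calls. Differences of log2 fold changes used the standard error implied by fold change over statistic, a normal p and Benjamini-Hochberg adjustment over the whole table; the rescaled error divides this by the median ratio of the p's normal z to the statistic (2.03 in both diet tables). Nothing says whether the 4 animals were housed or processed together, so p-values measure only the spread between them. Sequence sharing used GENCODE M21 and promoters RefSeq. Python 3.11.15, pandas 2.3.3, numpy 2.4.6, scipy 1.17.1, biopython 1.88 and matplotlib 3.10.9 were used, and the test of differences was run on simulated data with known answers. Alternatives were other thresholds, filters, scalings and errors, and sums without 1 member.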

Additional observations from a re-analysis of the deposited data

Results flagged for a closer look

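Each result here is a difference between the log2 fold changes of a member in separate comparisons that passed the test of the difference itself. The vehicle groups, given the same diet, differed for Cyp2b9, whose change from lean control was lower in the tropifexor vehicle group by a difference of -1.65.

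Between tropifexor doses, which share a vehicle group, Cyp2a4 differed by -6.12 for mid minus low and -4.47 for high minus low. Cyp2u1 differed by 2.62 for mid minus low and Cyp2c29 by -2.10 for high minus mid.

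High-dose tropifexor minus OCA gave -8.18 for Cyp2b9, -4.50 for Cyp2c29, -1.92 for Cyp2c37, 1.67 for Cyp2c38 and 1.82 for Cyp2c39. Mid dose minus OCA gave -2.24 for Cyp1b1, -2.74 for Cyp2a4, -6.81 for Cyp2b9, -2.40 for Cyp2c29, -1.42 for Cyp2c37 and 2.04 for Cyp2u1. Low dose minus OCA gave 3.38 for Cyp2a4, -5.27 for Cyp2b9 and -3.15 for Cyp2c29. Cyp2a4 shares 38.0% of its 50-base windows with other genes, and Cyp2b9 values under tropifexor were at most 0.128 FPKM.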

How the results depend on the processing

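Counts of called members stayed within 1.5 times under a q of 0.01, after refiltering at an FPKM of 1, and after centring on the median gene. In the order OCA vehicle, tropifexor vehicle, OCA, low, mid and high dose against its reference, and OCA against lean, an absolute log2 fold change of at least 1 left 11, 16, 2, 11, 13, 17 and 13 members. In that order, and then low, mid and high dose against lean, members without a close copy gave 9, 15, 3, 8, 15, 15, 15, 13, 14 and 13 calls, from fewer members, and a log2 of FPKM + 1 of at least 1 gave 7, 5, 2, 9, 10, 12, 7, 17, 16 and 15. With the rescaled error, called differences numbered 4 for the vehicles, 16, 11 and 7 for mid minus low, high minus low and high minus mid, and 20, 19 and 8 for high, mid and low dose minus OCA. With an FPKM of at least 1 in each table, mid minus low had 1. Of 253 single values, centring moved 0 beyond the standard error and FPKM + 1 moved 83, and neither reversed any.

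Without its member of highest FPKM, the log2 ratio of a subfamily sum changed sign in 18 of 64 cases. For Cyp1a it became 0.44 (OCA vehicle), 0.31, -0.59 and -0.09 (low, mid, high dose) and 0.13 (low dose against lean). Only Cyp1a1 was left there, at an FPKM of 0.125 to 0.332 and never called. Cyp2b became 2.77 in the tropifexor vehicle group, where Cyp2b10 and Cyp2b13 stood at only 0.379 and 0.342. Cyp2c became -0.30 in the OCA vehicle group, and Cyp2d -0.35 and -0.64 at the mid and high doses. Cyp2j became 0.02 and 0.43 at the low and high doses and 0.41 and 0.24 for mid and high dose against lean. Cyp3a became -0.30 in the tropifexor vehicle group, 0.27, 1.02 and 0.66 at low, mid and high dose, and -0.03 for low dose against lean. Without Cyp2c29, an alternative chosen after seeing the data, the Cyp2c sum became -0.30 (OCA vehicle), 0.39 (mid) and 0.30 (high).

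No paired analysis was possible because the tables hold 1 value per group, with no animal to leave out and no spread to show. Fragment counts are unknown, so folds of genes below an FPKM of 1 have no counting interval.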
